A study of Mus musculus with 8 samples.

Results

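The 41 genes described here had a higher RNA level in Klf6-silenced immature oligodendrocytes (iOL) than in control iOL and were not listed among the genes that differed in oligodendrocyte progenitors (OLP). They are 41 of the 112 rows that the authors listed as different in iOL, and none of them is among the 275 rows listed in OLP. They were chosen by their measured values: the level with siKlf6 had to exceed the level with the control siRNA in iOL, the name had to be absent from the OLP list, and rows named for a microRNA were left out. The direction of these genes in iOL is therefore a property of the choice and not a result, and absence from the OLP list means only that a gene was not called there, since no OLP value of these genes was analysed here.

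The study asked what the zinc finger transcription factor Klf6 controls when an OLP becomes an iOL. Cells were panned from the cortex of C57BL/6 mice in about the first postnatal week, after depletion of microglia, with an antibody to PDGFRα, a receptor that marks OLP, and were nucleofected with a nontargeting siRNA (NT) or an siRNA to Klf6 (siKlf6). RNA was sequenced from 8 samples in 4 groups of 2 cultures, namely OLP NT, OLP siKlf6, iOL NT and iOL siKlf6. All cultures received PDGF-AA at 10 ng/ml and bFGF at 20 ng/ml. The iOL cultures were also given T3, a thyroid hormone that starts differentiation, at 40 ng/ml over 18 h. The paper describes growth in the PDGF-AA and bFGF first and then plating into a differentiation medium with T3. Whether these factors stayed in that medium is not stated there. The tables used here hold 1 value per gene and condition, so that the cultures' own values, their spread and the sequencing depth are unknown, and no difference below is given with an error or a test of its own; the authors' p and q values were not used. The values are FPKM, in which fragment counts are divided by transcript length and by library size, and each is the authors' pooled value for its condition. Because these are bulk cultures, a larger share of cells that express a gene and more RNA per cell cannot be told apart.

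Klf6 belongs to the Krüppel-like family of transcription factors, which bind GC-rich boxes and CACC boxes in promoters and can raise or lower transcription with different partners. Many members of the family are themselves induced within minutes of a stimulus, as are the Egr and Fos genes. As an OLP differentiates it leaves the cell cycle, remodels its surface and the matrix around it, and starts to make myelin lipids and proteins under Sox10, a transcription factor of the whole lineage. Secreted peptides, matrix proteins and calcium-dependent enzymes are among the products through which such cells signal to neurons and vessels.

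The labelled cell type could be checked only through listed genes. Among 8 OLP markers and 12 markers of differentiating oligodendrocytes, 1 of each set was listed in iOL. The listed gene of the OLP set was Sox10, which belongs to the whole lineage and not to OLP alone. Sox10 was at 42.1 FPKM in iOL NT and 25.9 FPKM in iOL siKlf6. Cldn11, a tight junction protein of myelin, was at 17.7 and 9.83 FPKM. None of 14 endothelial, 8 pericyte, 9 astrocyte or 10 microglial markers was listed in iOL. Of 12 neuronal markers, Nefl alone was listed there, at 3.85 FPKM in NT and 1.88 FPKM with siKlf6. In OLP, markers of other cell types were listed, all lower with siKlf6. The astrocyte marker Gfap was at 3.06 FPKM with NT and 0.0752 FPKM with siKlf6. The microglial markers Cd14 and Irf8 were at 1.91 and 0.146 FPKM and at 1.81 and 0.667 FPKM. Neuronal Tubb3 was at 21.97 and 6.62 FPKM, neuronal Nefl at 4.59 and 1.16 FPKM and endothelial Kdr at 0.764 and 0.323 FPKM. Not being listed in iOL means only that no difference was called there. The levels of unlisted markers are unknown. Klf6 itself was listed in OLP, at 38.6 FPKM with NT and 20.0 FPKM with siKlf6, but not in iOL, so its silencing could not be read at the stage described here.

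Across the 41 genes the level with siKlf6 was 1.52 to 3.61 times the level with NT, with a median ratio of 1.82 (a median difference of 0.86 on the log2 scale). Since the rule chose them for direction, the share of all iOL rows with siKlf6 above NT, 54.5% of 112, is given for reference only, and nothing is read from it. A set of 13 of the 41 genes were at least 2-fold higher, and 22.3% of all 112 iOL rows were. The 112 rows include 51 lower ones that could not be counted, so the shares are not alike. Of the 16 genes higher at both stages, 8 were at least 2-fold higher in iOL. The count of 13, too, comes from the values that chose the genes. There was no row between the directions: the smallest ratio among all higher iOL rows was 1.46 and the ratio nearest to 1 among the lower rows was 0.676. Only rows past the authors' threshold are listed, so a gap of this kind comes with that threshold. The member closest to the edge of the list, Cxadr, had a ratio of 1.52, and Tns3, the higher row with the ratio of 1.46, lay outside because it was also listed in OLP.

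The genes differed far more in level than in ratio. In iOL NT they ran from 0.105 FPKM for Col25a1 to 512 FPKM for Lars2, with a median of 2.69 FPKM, and with siKlf6 the median was 4.89 FPKM. There were 12 genes under 1 FPKM in iOL NT, and 4 of these (Col25a1, Unc13c, Fgl2 and Hmcn1) stayed under 1 FPKM with siKlf6 as well. The larger ratios lay at the low levels. Of the 12 genes under 1 FPKM, 8 were at least 2-fold higher and the median ratio was 2.34, whereas of the other 29 genes 5 were at least 2-fold higher and the median ratio was 1.76. Across the 41 genes the rank correlation between the NT level and the ratio was -0.61 (Spearman's rho). The genes are not independent, and the NT level is part of both measures. A gene at a low level may also pass the authors' threshold only with a large ratio. Nothing about the genes is therefore read from this relation. The 5 genes that were at least 2-fold higher from a level of 1 FPKM or more were Cd36, Egr1, Apln, Pcp4 and Hs3st1.

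**Figure D1:**
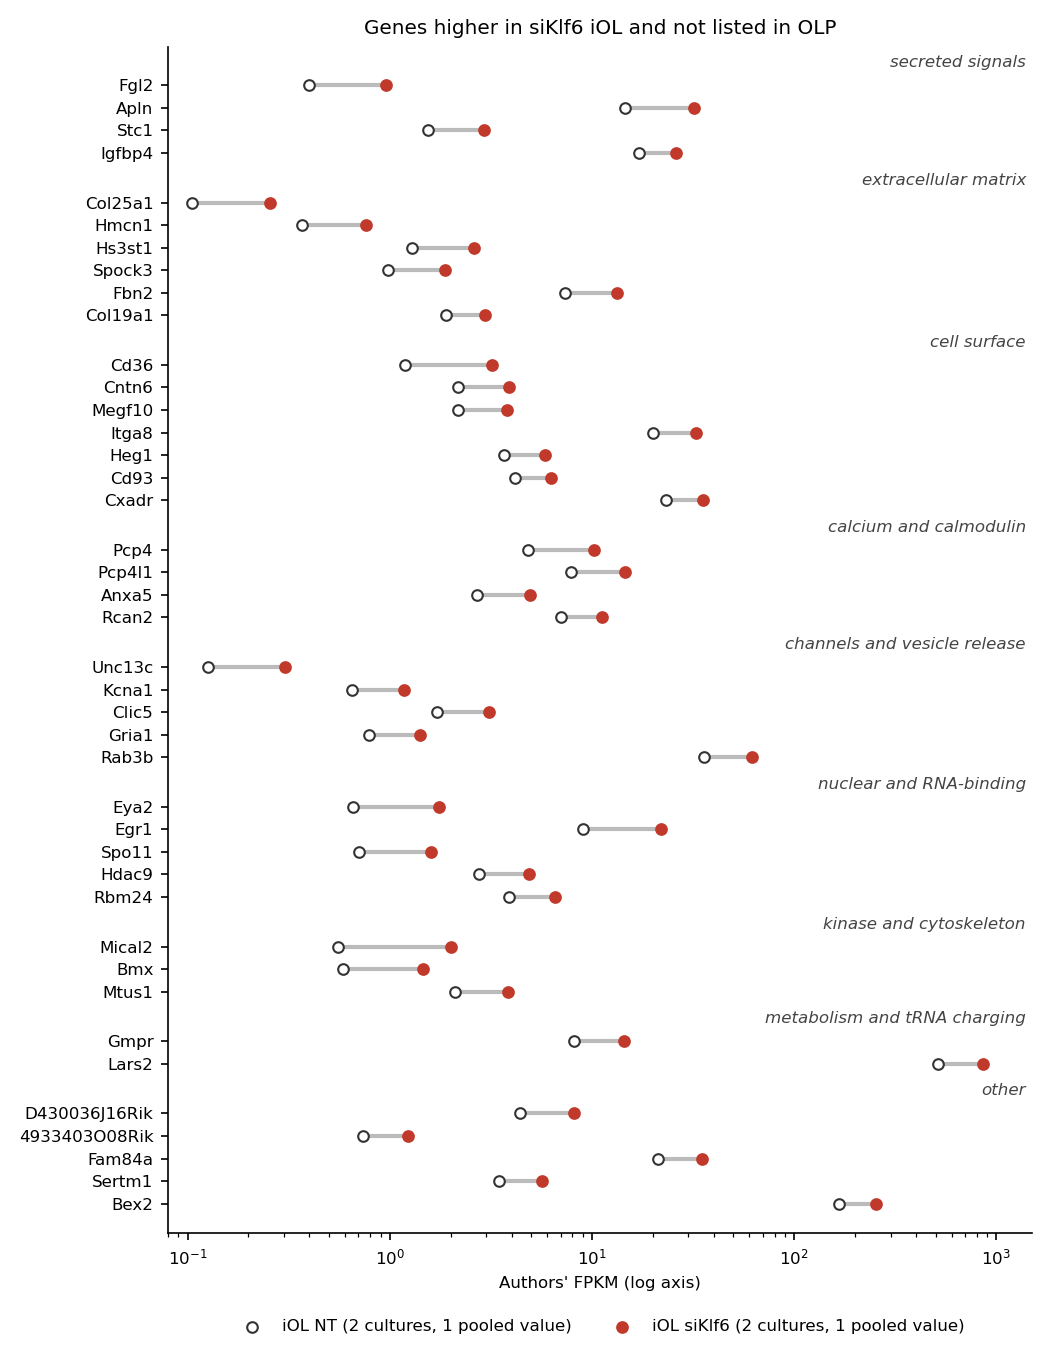
Authors' FPKM of the 41 genes in iOL NT (open circles) and iOL siKlf6 (filled circles) on a log axis, 1 pooled value of 2 cultures each, grouped by role. The genes spread from 0.105 to 860 FPKM, and the longest line joins the values of Mical2, at 0.554 and 2.00 FPKM.

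**Figure D2:**
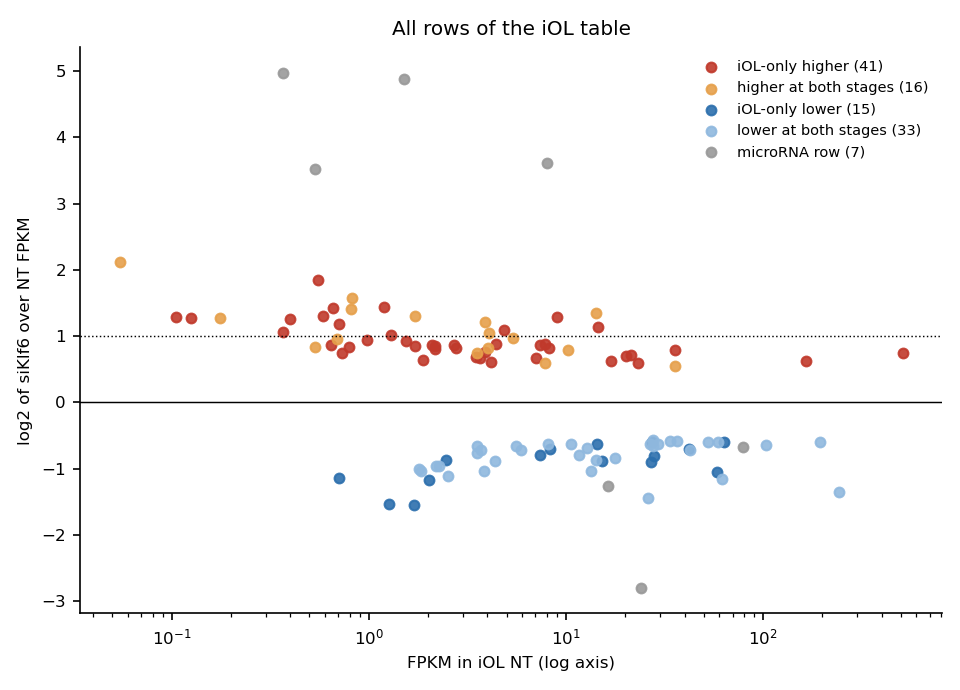
The log2 ratio of siKlf6 over NT FPKM (vertical axis) against FPKM in iOL NT (log horizontal axis) for all 112 iOL rows, coloured by class, with the dotted line at 2-fold. The 41 genes described here lie between 0.60 and 1.85, with the larger ratios at low levels, among rows that all passed the authors' threshold.

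The promoters of these genes come before the values by role, because the factor that was silenced binds GC-rich boxes. RefSeq promoter sequences (GRCm38.p6) were matched by symbol for 29 of the 41 genes. In the 250 bases before the start, on either strand, 10 of the 29 (34.5%) held the GC box GGGCGG, namely Apln, Cd36, Clic5, Col25a1, Fgl2, Gmpr, Heg1, Lars2, Rab3b and Unc13c. Among all 27025 genes with a promoter sequence 35.4% held it, and among 17492 protein-coding genes 45.8%. In the other classes of iOL rows it was found in 8 of 10 promoters of genes higher at both stages (80.0%), 6 of 11 of genes lower in iOL alone (54.5%) and 18 of 26 of genes lower at both stages (69.2%). These shares are descriptions without a test. Heg1 held 7 copies, some of which share letters, and Rab3b held 4, while 19 of the 29 held none.

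The last 120 bases before the start are printed for Heg1 and Rab3b, which held the most GC boxes, for Gmpr and Cd36, which held 2 boxes each, and for 3 genes without a box in this stretch that were more than 2-fold higher, Mical2, Apln (whose 1 box lies farther upstream) and Pcp4. All are given in the direction of transcription, 5′ to 3′, in GRCm38.p6, and capitals mark GGGCGG or its reverse complement CCGCCC. The window of Heg1 lies at chr16:33684346-33684465 on the plus strand. The window of Rab3b lies at chr4:108878950-108879069 on the plus strand. The window of Gmpr lies at chr13:45507324-45507443 on the plus strand. The window of Cd36 lies at chr5:17835897-17836016 on the minus strand. The window of Mical2 lies at chr7:112225716-112225835 on the plus strand. The window of Apln lies at chrX:48034854-48034973 on the minus strand. The window of Pcp4 lies at chr16:96467486-96467605 on the plus strand.
Heg1: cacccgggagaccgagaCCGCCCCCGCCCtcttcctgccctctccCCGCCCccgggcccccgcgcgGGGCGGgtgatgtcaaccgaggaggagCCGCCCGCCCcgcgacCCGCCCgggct
Rab3b: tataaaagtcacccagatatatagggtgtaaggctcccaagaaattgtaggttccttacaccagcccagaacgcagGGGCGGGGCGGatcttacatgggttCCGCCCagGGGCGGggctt
Gmpr: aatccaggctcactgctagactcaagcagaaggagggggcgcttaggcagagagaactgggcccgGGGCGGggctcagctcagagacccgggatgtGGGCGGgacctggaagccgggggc
Cd36: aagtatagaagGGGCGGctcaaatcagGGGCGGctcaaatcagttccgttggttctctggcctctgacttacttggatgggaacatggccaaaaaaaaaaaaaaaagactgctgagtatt
Mical2: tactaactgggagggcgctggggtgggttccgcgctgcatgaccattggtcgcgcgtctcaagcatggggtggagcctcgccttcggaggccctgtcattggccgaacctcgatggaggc
Apln: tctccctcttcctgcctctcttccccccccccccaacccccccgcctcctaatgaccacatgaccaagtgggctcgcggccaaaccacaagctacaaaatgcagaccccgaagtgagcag
Pcp4: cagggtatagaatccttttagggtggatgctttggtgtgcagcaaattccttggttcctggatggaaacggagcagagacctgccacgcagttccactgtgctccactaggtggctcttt
The copies in Heg1 lie along the stretch on both strands, those of Rab3b lie close to the start, and those of Cd36 lie in a repeated stretch near the far end. The number of boxes was not compared with the ratio, since the ratio chose the genes. A match to these letters is not a measured binding site.

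Of 8 other motifs searched on both strands of the 250 bases, the CACC box core GGGTG was found in 75.9% of the 29 promoters, 74.5% of 47 promoters of other iOL rows and 54.5% of all 27025. AGGTCA, a motif of nuclear receptors that thyroid hormone receptors can bind in pairs, was found in 24.1%, 10.6% and 15.8%, and the genes holding it were 4933403O08Rik, Cd36, Clic5, D430036J16Rik, Gmpr, Hdac9 and Pcp4. TATAAA stood in 13.8%, 8.51% and 14.3%, TGANTCA, the motif of Fos and Jun dimers, in 10.3%, 8.51% and 7.82%, and ACGTG, the core of the hypoxia response element, in 10.3%, 17.0% and 18.5%. The cyclic AMP response element TGACGTCA, the shorter TGACGT that lies within it, and the Egr motif GCGTGGGCG were in none of the 29, and in 1.77%, 7.29% and 0.622% of all 27025.

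Secreted signals made up 4 of the 41 genes. Apln encodes apelin, a peptide that acts on the apelin receptor of vessels and heart. It was at 14.5 FPKM in iOL NT and 31.9 FPKM in iOL siKlf6, a ratio of 2.19 and a difference of 17.3 FPKM. Igfbp4, which binds insulin-like growth factors and limits their access to receptors, was at 17.0 and 26.1 FPKM, a ratio of 1.53. Stc1, a glycoprotein hormone that responds to calcium and phosphate, was at 1.54 and 2.92 FPKM, and Fgl2, a fibrinogen-like protein that can be secreted or held at the membrane, was at 0.400 and 0.961 FPKM. Apln was thus the only secreted signal that was more than 2-fold higher from a level above 1 FPKM.

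A total of 5 of the 41 genes, Apln, Igfbp4, Cd93, Heg1 and Cd36, stood on a list of 41 genes for vascular growth and hypoxia-related signals. This and the other lists were drawn up with earlier results of these data known, so their counts are descriptions. They stand beside a background of 54.5% of the 112 iOL rows that were higher and 78.5% of the 275 OLP rows that were lower with siKlf6. Of the vascular list 7 genes were in the iOL table, and the direction of 5 of them was fixed by the choice. The other 2, Adm and Antxr2, were higher in iOL and also in OLP. Adm, which encodes the vasodilator peptide adrenomedullin, was at 5.42 and 10.6 FPKM in iOL and at 6.71 and 12.6 FPKM in OLP. Antxr2, a receptor for capillary matrix, was at 3.54 and 5.91 FPKM in iOL and at 2.08 and 4.25 FPKM in OLP. The OLP table held 5 genes of the list, and the other 3 of these, Kdr, Hk2 and Bhlhe40, were lower with siKlf6 there. Cd93, a C-type lectin of endothelium and myeloid cells that binds matrix, was at 4.15 and 6.31 FPKM. Heg1, a membrane protein of endothelial junctions and heart development, was at 3.66 and 5.85 FPKM. Cd36, the scavenger receptor that takes up fatty acids and binds thrombospondin, was at 1.19 and 3.21 FPKM, a ratio of 2.70. The median log2 ratio of the vascular genes listed was 0.74 in iOL and -1.24 in OLP, and over all listed rows it was 0.62 in iOL and -0.98 in OLP.

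The extracellular matrix genes were Fbn2, Hmcn1, Col19a1, Col25a1, Spock3 and Hs3st1. Fbn2, a fibrillin of microfibrils, was by far the highest of them at 7.35 FPKM in NT and 13.4 FPKM with siKlf6. Col19a1, a collagen that associates with other fibrils, was at 1.89 and 2.95 FPKM, and Col25a1, a membrane collagen found in neurons, at 0.105 and 0.257 FPKM. Hmcn1, the long basement membrane protein hemicentin, was at 0.367 and 0.766 FPKM, Spock3, a testican proteoglycan, at 0.981 and 1.88 FPKM, and Hs3st1, which adds sulfate to heparan sulfate chains, at 1.29 and 2.62 FPKM. Fbn2 alone among them exceeded 3 FPKM in either condition. A pair of family relatives differed in the other direction or at the other stage: Col9a1 was lower in iOL with siKlf6, at 1.69 and 0.580 FPKM, and Col11a1 was higher in OLP, at 19.0 and 37.0 FPKM.

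Cell surface and adhesion genes numbered 7 in all, the 3 vascular ones above among them. The remaining 4 were Itga8, Cxadr, Cntn6 and Megf10. Itga8, the integrin α subunit that pairs with β1 and binds nephronectin and fibronectin, was at 20.1 FPKM in NT and 32.5 FPKM with siKlf6. Cxadr, a junction protein that also serves as a virus receptor, was at 23.3 and 35.3 FPKM, and its ratio of 1.52 was the smallest of the 41. Itga8 and Cxadr, with the higher levels, thus had ratios below those of Cntn6 and Megf10. Cntn6, a contactin of neural cell contacts, was at 2.17 and 3.90 FPKM, and Megf10, an engulfment receptor of glia and muscle precursors, at 2.17 and 3.79 FPKM. Of a list of 54 extracellular matrix and adhesion genes, 12 were in the iOL table, of which 7 are among the genes described here, higher by the choice. In OLP 9 genes of that list were listed, 5 higher and 4 lower, where 78.5% of all rows were lower. Its median log2 ratio was 0.72 in iOL and 0.62 in OLP. That list did not hold Hmcn1, Col19a1, Col25a1, Spock3 or Hs3st1, higher by the choice, or Col9a1, which was lower in iOL. Its counts and medians therefore do not cover all matrix genes named here. Of the other 5 iOL genes of the list, Antxr2, Fbln2, Lama4 and Tns3 were higher at both stages and Cldn11 was lower at both. In iOL Fbln2 was at 4.07 and 8.45 FPKM, Lama4 at 7.80 and 11.8 FPKM and Tns3 at 35.6 and 51.9 FPKM. The α7 integrin gene Itga7, a relative of Itga8, was listed in OLP alone, where it was lower, at 7.27 and 3.49 FPKM.

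Calcium and calmodulin-related genes were Pcp4, Pcp4l1, Rcan2 and Anxa5. Pcp4 and Pcp4l1 encode small proteins with an IQ motif, of which Pcp4 is known to bind calmodulin and to speed its exchange of calcium. Pcp4 was at 4.83 FPKM in NT and 10.3 FPKM with siKlf6, and Pcp4l1 at 7.87 and 14.6 FPKM, so both relatives were higher, by 2.13 and 1.85 times. Nrgn, neurogranin, another IQ-motif protein on the list, was higher at both stages. It was at 3.87 and 8.97 FPKM in iOL and at 8.96 and 29.7 FPKM in OLP. Rcan2, an inhibitor of the calcium-dependent phosphatase calcineurin, was at 7.06 and 11.2 FPKM, and Ppp3ca, a catalytic subunit of calcineurin, was listed in OLP alone and lower there, at 61.3 and 37.2 FPKM. Anxa5, an annexin that binds membranes in the presence of calcium, was at 2.69 and 4.93 FPKM, whereas its relative Anxa2 was listed in OLP alone and lower, at 7.74 and 2.69 FPKM. Of 27 genes on the calcium and calmodulin list 7 were in the iOL table, of which the 4 genes above were higher by the choice, Nrgn was higher, and S100a10 and Eef2k were lower. Under their own names alone, 7 genes of the same list were listed in OLP, 2 higher and 5 lower. Their median log2 ratio was -0.91, and that of all OLP rows was -0.98. Rcan3, a relative of Rcan2 on the same list, shared an OLP row with a microRNA and was not counted. That row was higher in OLP, at 9.38 FPKM with NT and 47.0 FPKM with siKlf6.

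Channels, receptors and proteins of vesicle release were represented by Gria1, Kcna1, Clic5, Rab3b and Unc13c. Rab3b, a small GTPase of regulated secretion, was at 35.7 FPKM in NT and 61.7 FPKM with siKlf6, the third-highest level of the 41 genes in both conditions. Gria1, a subunit of AMPA glutamate receptors, was at 0.791 and 1.41 FPKM. Kcna1, a voltage-gated potassium channel of axons, was at 0.647 and 1.18 FPKM, while Kcna5, its relative, was listed in OLP alone and lower, at 0.977 and 0.146 FPKM. Clic5, of the chloride intracellular channel family, was at 1.72 and 3.09 FPKM. Unc13c, a priming factor for synaptic vesicles, was at 0.126 and 0.303 FPKM, and its relative Unc13b went the other way at both stages, from 3.69 to 2.24 FPKM in iOL and from 3.79 to 1.60 FPKM in OLP. In this group Rab3b was thus the only gene above 4 FPKM. On the vesicle traffic list of 21 genes, 4 were in the iOL table, Rab3b and Sv2c higher and Cplx1 and Unc13b lower. Their median log2 ratio was 0.033. The list did not hold Unc13c, higher by the choice, so neither the count nor the median includes it.

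The nuclear and RNA-binding genes were Egr1, Hdac9, Eya2, Rbm24 and Spo11. Egr1, a zinc finger factor and immediate-early gene, was at 9.01 FPKM in NT and 21.9 FPKM with siKlf6, a ratio of 2.43. Of 36 immediate-early genes on the list, Egr1, higher by the choice, and Arc, higher at both stages, were in the iOL table. Of the same list, 16 genes were listed in OLP, 14 lower and 2 higher (Arc and Dusp6), with a median log2 ratio of -1.55. The 14 include Klf6, the target of the siRNA, so its direction was set by the treatment. Over all 275 OLP rows 216 (78.5%) were lower, with a median of -0.98. Arc, a cytoskeletal protein of activity-dependent signalling, was at 4.03 and 7.11 FPKM in iOL and at 14.9 and 24.2 FPKM in OLP. Egr3, a relative of Egr1, was in the OLP table alone and lower, at 1.88 and 0.739 FPKM, and Fos was lower in OLP at 80.7 and 17.7 FPKM. The difference between the stages was not tested.

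Hdac9, a class IIa histone deacetylase, was at 2.77 and 4.89 FPKM. Eya2, a phosphatase and transcriptional coactivator, was at 0.655 and 1.75 FPKM, a ratio of 2.68. Rbm24, an RNA-binding protein of muscle splicing, was at 3.88 and 6.56 FPKM, and Spo11, which makes the DNA breaks of meiosis, was at 0.706 and 1.60 FPKM. Among 28 transcription and chromatin factors of neural lineages 5 were in the iOL table. Hdac9, Rbm24 and Zcchc12 were higher, the last at both stages, and Sox10 and Dbx2 were lower, and the median log2 ratio was 0.76.

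Of the remaining genes, Mical2 was at 0.554 FPKM in NT and 2.00 FPKM with siKlf6, a ratio of 3.61. This was the largest of the 41 with no constant added. With 1 FPKM added its log2 ratio was 0.949, below Egr1 at 1.20, Apln at 1.08 and Pcp4 at 0.953. Mical2 encodes a monooxygenase that oxidises actin in the nucleus and so acts on serum response factor signalling. Bmx, a Tec-family tyrosine kinase of endothelium and heart, was at 0.589 and 1.45 FPKM, and Mtus1, a microtubule-associated protein, at 2.10 and 3.82 FPKM. Lars2, the mitochondrial leucyl-tRNA synthetase, had the highest level, at 512 and 860 FPKM, with the NT level 3.08 times that of the next gene. Gmpr, guanosine monophosphate reductase of purine metabolism, was at 8.19 and 14.4 FPKM. Bex2, of a family of similar small X-linked proteins whose reads the authors' counting may have split, was at 166 and 255 FPKM. Fam84a was at 21.3 and 35.0 FPKM, Sertm1, a small membrane protein, at 3.49 and 5.63 FPKM, and the genes known only by clone names, D430036J16Rik and 4933403O08Rik, at 4.41 and 8.11 FPKM and at 0.734 and 1.23 FPKM. By absolute difference Lars2, at 348 FPKM, and Bex2, at 89.2 FPKM, exceeded every other gene of the 41, although their ratios of 1.68 and 1.54 were below the median.

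**Figure D3:**
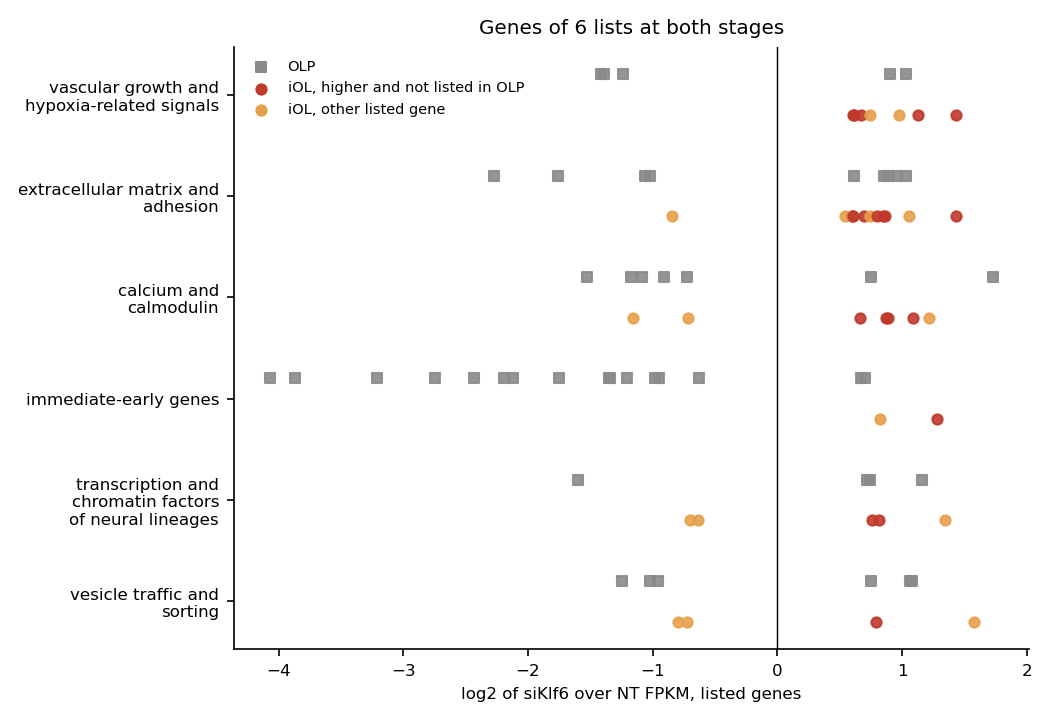
The log2 ratio of siKlf6 over NT FPKM for genes of 6 gene lists, in OLP (squares) and iOL (circles), with the genes described here in red. Genes listed only in a row shared with a microRNA are not drawn. The red circles lie right of 0 because the genes were chosen for it. Of the immediate-early genes listed in OLP 14 of 16 lie left of 0, where 78.5% of all OLP rows lie. The 14 include Klf6, the target of the siRNA.

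The rule for choosing these genes did not use gene length. Only rows past the authors' threshold could be chosen, and whether passing it depends on length was not tested. On the mm9 assembly (NCBIM37, GENCODE annotation) 40 of the 41 had a gene model under their symbol, and the span from start to end had a median of 76.2 kb, from 1.67 kb for Bex2 to 481 kb for Hdac9. Of the 40, 17 (42.5%) spanned more than 100 kb, among them Unc13c, Hmcn1, Col25a1, Spock3, Cntn6, Col19a1 and Gria1. Of all 22380 annotated protein-coding genes, whether or not expressed in these cells, 10.7% did, with a median span of 15.4 kb. The genes higher at both stages had a median of 83.2 kb, and 8 of 16 spanned over 100 kb. Of genes lower in iOL alone, 0 of 14 exceeded 100 kb and the median was 19.7 kb, and of genes lower at both stages 9 of 33 (27.3%) did, with a median of 31.5 kb. The merged exon length, which enters FPKM, differed less, at a median of 3.92 kb against 2.74 kb for all protein-coding genes. The lengths were compared without a test. The levels differed along with them, since the median NT level was 2.69 FPKM for the 41 genes and 14.3 FPKM for the genes lower in iOL alone. The part of this difference in level in the difference in length was not tested.

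**Figure D4:**
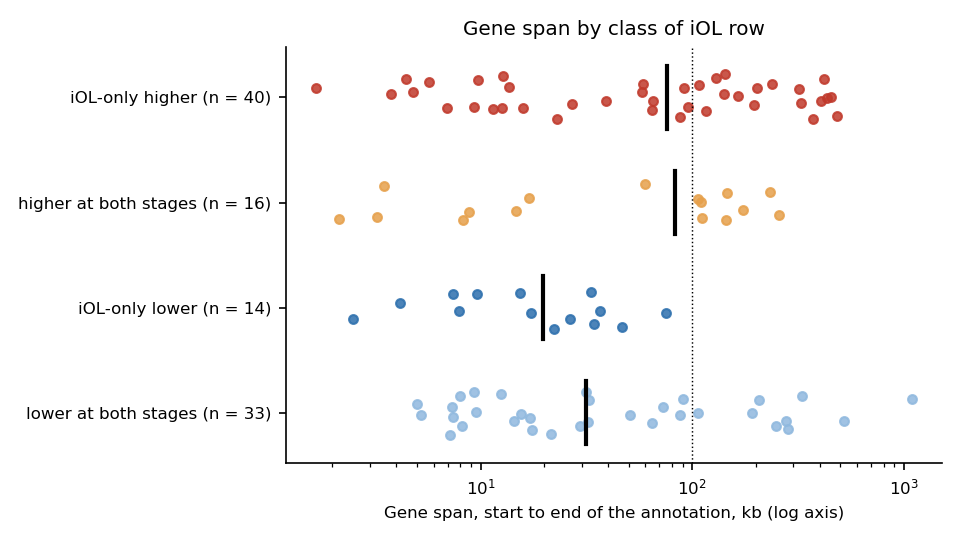
Gene span in kb on a log axis for the iOL rows with a gene model, by class; each point is 1 gene (shifted vertically at random), the black bar is the median and the dotted line is at 100 kb. Medians are 76.2, 83.2, 19.7 and 31.5 kb from top to bottom.

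The 40 placed genes lay on 17 chromosomes, 4 of them on X (Apln, Bmx, Bex2 and 4933403O08Rik) and 3 on 18 (Egr1, Fbn2 and Megf10). Within 1000 kb of each other lay 3 pairs. Chromosomes and pairs were not counted for other iOL rows or for all genes, so nothing is read from these positions. On mm9, Rcan2 at chr17:43938800-44176465 and Clic5 at chr17:44325521-44417117 were separated by 149 kb that hold Enpp5 and Enpp4, and they were higher by 0.66 and 0.85 on the log2 scale. Gmpr and Rbm24 on chromosome 13 were 872 kb apart and Megf10 and Fbn2 on chromosome 18 were 711 kb apart, each pair with 4 protein-coding genes between. No gene between a pair is among the 41.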

How the data were processed

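RNA was measured by sequencing in 8 samples, 2 cultures in each of the groups OLP NT, OLP siKlf6, iOL NT and iOL siKlf6. Per the study's methods and the submitters' processing notes, reads were processed with CASAVA 1.8, aligned to mm9 with TopHat2 and tested with Cuffdiff, and the deposited FPKM values are the authors' pooled value per condition, normalised by Cufflinks. The annotation and the use of strand are not given in the sources used here. Each table holds only genes past the authors' threshold, so that a gene can be absent for a small difference, a large spread or a low level. The authors' fold changes, test statistics, p and q values were also in the tables and were not used.

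From the FPKM values, ratios of siKlf6 over NT and their log2 were computed without an added constant (Python 3.11.15, pandas 2.3.3); no test was run, with 1 value per condition. The members, the 6 gene lists and 7 marker lists were chosen with earlier results of these data known, and the roles were assigned after the members were known. Every member is named, and other genes only where they are on a list or relatives of a member. Gene spans were read from GENCODE on NCBIM37 and promoters from RefSeq on GRCm38.p6, with no coordinates moved between builds. The scripts were tested on simulated tables. Alternatives were 0.1 or 1 FPKM added before log2, at least 1 FPKM in both conditions, a ratio of at least 1.5, names split at commas, rows of single genes, and, chosen after seeing the data, a promoter window of 120 bases.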

Additional observations from a re-analysis of the deposited data

How the results depend on the processing

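The number of genes was 41 with names split at commas, with rows of single genes alone and with a ratio of at least 1.5, and 29 when genes under 1 FPKM in either condition were left out. The median difference of 0.86 on the log2 scale was 0.82 with that requirement, 0.81 with 0.1 FPKM added before the logarithm and 0.63 with 1 FPKM added. The count of genes at least 2-fold higher was 13, and it was 9 with 0.1 FPKM added, 5 among genes of 1 FPKM or more under NT and siKlf6 alike and 2 with 1 FPKM added (Egr1 and Apln). Adding a constant cannot turn a direction. The share of promoters with a GC box was 34.5% in 250 bases and 27.6% in 120 bases, a window chosen after the data were seen. No paired analysis was possible because each condition has 1 pooled FPKM and no values of single cultures, and for the same reason no culture could be left out. Depth is unknown, so the counting error of the genes under 1 FPKM cannot be given.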
